A study of Saccharomyces cerevisiae with 18 samples.

Results

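The mRNAs of 10 subunits of the yeast SAGA complex were followed through affinity purifications of nuclear pore complexes (NPCs). They were taken by locus name from the deposited counts, which list 7127 features, and are GCN5, ADA2, NGG1, SPT20, SPT7, SPT3, TRA1, SGF73, UBP8 and SGF11. All 10 locus names carry these symbols in the RefSeq annotation, and all 10 passed the filter on low counts that left 6429 genes to test.

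SAGA (Spt-Ada-Gcn5 acetyltransferase) is a large coactivator that is brought to promoters by transcription activators. It acetylates histones through one module, removes ubiquitin from histones through another, and helps to place the TATA-binding protein. Its deubiquitinating module shares the small protein Sus1 with TREX-2, an mRNA export complex docked at the nuclear basket of the pore, which is one of the ties between transcription and export described in yeast. What was measured here is the mRNA of each subunit, not the complex itself.

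All libraries were made from poly(A) RNA of Saccharomyces cerevisiae strain W303, grown asynchronously to log phase in YPD and ground frozen, with 3 libraries in each of 6 groups. Basket-containing pores were purified on IgG. A GFP nanobody was the matrix for basket-less pores and for all NPCs. The PrA control is the background purification on IgG and the GFP control that on the nanobody, and the input is RNA taken directly from the total extract. The sources used here do not name the tagged proteins that served as handles, nor say whether replicates are separate cultures, so the p-values cover the spread among libraries and no more, and that spread may be technical. The purified basket-containing and basket-less pores differ in matrix as well as in basket, and these cannot be told apart in their direct comparison.

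Library totals ran from 10592840 to 16620246 counts, and a member had between 56 and 9546 raw counts in a library. Replicate 3 of the PrA control stood apart from its partners, with a chi-square per degree of freedom of 18.9 and 20.6, against at most 9.66 for any other pair of replicates. Levels are CPM (counts scaled to library size, with TMM factors). A level is a share of a library rescaled by its TMM factor, so it is not a plain share of the counts. It is still relative, so a member can have a lower level in one purification even if more of it was recovered. Differences are log2 fold changes ± standard error from edgeR's quasi-likelihood test over all 6429 genes, and a gene is called at a Benjamini-Hochberg adjusted p below 0.05 (n = 3 libraries per group throughout).

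The members span a wide range of coding lengths. SGF11 (YPL047W) is the shortest, with 300 coding bases, and TRA1 (YHR099W) the longest, with 11235. The others have 1014 (SPT3), 1305 (ADA2), 1320 (GCN5), 1416 (UBP8), 1815 (SPT20), 1974 (SGF73), 2109 (NGG1) and 3999 (SPT7) coding bases. All 10 have a single coding exon and overlap no gene of the R64 annotation, and the gap to the nearest annotated gene was 120 to 405 bases. GC content of the coding sequence ran from 36.2% in UBP8 to 41.8% in SGF73. The whole coding sequence of SGF11 is printed because this mRNA had the largest fall of the 10 in every pore purification over its background. It lies in R64 at chrXVI:465962-466261 on the plus strand, is read 5′ to 3′ from the R64 genome of RefSeq, and has its start and stop codons in capitals.
SGF11: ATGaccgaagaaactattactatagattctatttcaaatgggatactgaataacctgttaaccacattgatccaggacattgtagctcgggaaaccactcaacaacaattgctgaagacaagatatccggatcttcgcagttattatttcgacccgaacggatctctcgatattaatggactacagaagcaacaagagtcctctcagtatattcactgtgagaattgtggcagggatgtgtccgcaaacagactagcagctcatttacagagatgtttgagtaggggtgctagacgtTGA

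Which SAGA mRNAs had a higher TMM-scaled level in pores than in the background of the same matrix? In basket-containing pores 6 of 10 rose over the PrA control and 2 fell, where 43.8% of all genes tested rose and 46.5% fell. With basket-less pores 8 rose and 2 fell over the GFP control (47.1% and 35.5% of all genes), and with all NPCs 8 rose and 2 fell over that same control (46.9% and 37.6%). The median log2 fold change of the 10 was 1.11, 0.58 and 0.64 in these comparisons, beside -0.07, 0.11 and 0.11 for all genes tested. Basket-less pores and all NPCs are set against the same GFP control libraries, so their values are not independent. As raw counts over library totals, without the TMM factors used for the fold changes, the sum of the 10 mRNAs was also taken. It was 0.188 ± 0.003% of a basket-containing library and 0.0871 ± 0.0075% of a PrA control library (mean ± SD, n = 3 each). Basket-less libraries held 0.148 ± 0.002% and those of all NPCs 0.181 ± 0.001%, against 0.0785 ± 0.0018% for the GFP control. Input libraries held 0.0670 ± 0.0021%. The sum is carried by a few members: TRA1, SPT7 and NGG1 made up 68.8 ± 1.3% of it in basket-containing pores, with 68.5 ± 0.9% for basket-less pores and 73.1 ± 0.3% for all NPCs, against 54.4 ± 1.1% in the PrA control and 54.7 ± 0.7% in the GFP control. GCN5, SPT3, UBP8 and SGF11 together made up 6.396 ± 0.206% of it in basket-containing pores, against 20.03 ± 1.43% in the PrA control, so the sum does not describe them.

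Whether the libraries overlapped was counted on the same TMM-scaled CPM, so these counts are not independent of the calls above. Every basket-containing library lay above every PrA control library for 6 members and below for 2, beside 43.4% and 46.0% of all genes. Over the GFP control this held for 8 and 2 members with basket-less pores (47.7% and 36.3% of all genes) and for 8 and 2 with all NPCs (48.1% and 38.4%). Over input the counts were 7 above and 3 below for basket-containing pores (44.0% and 45.7%), 8 and 2 for basket-less pores (45.4% and 37.5%), 8 and 2 for all NPCs (46.0% and 38.7%), 7 and 2 for the PrA control (36.4% and 40.2%) and 7 and 1 for the GFP control (37.7% and 42.4%). Basket-containing libraries were above basket-less ones for 6 members and below for 3 (41.1% and 43.5%), basket-less above all NPCs for 1 and below for 3 (28.9% and 30.7%), and PrA above GFP control for 1 and below for 1 (15.7% and 18.7%).

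**Figure D1:**
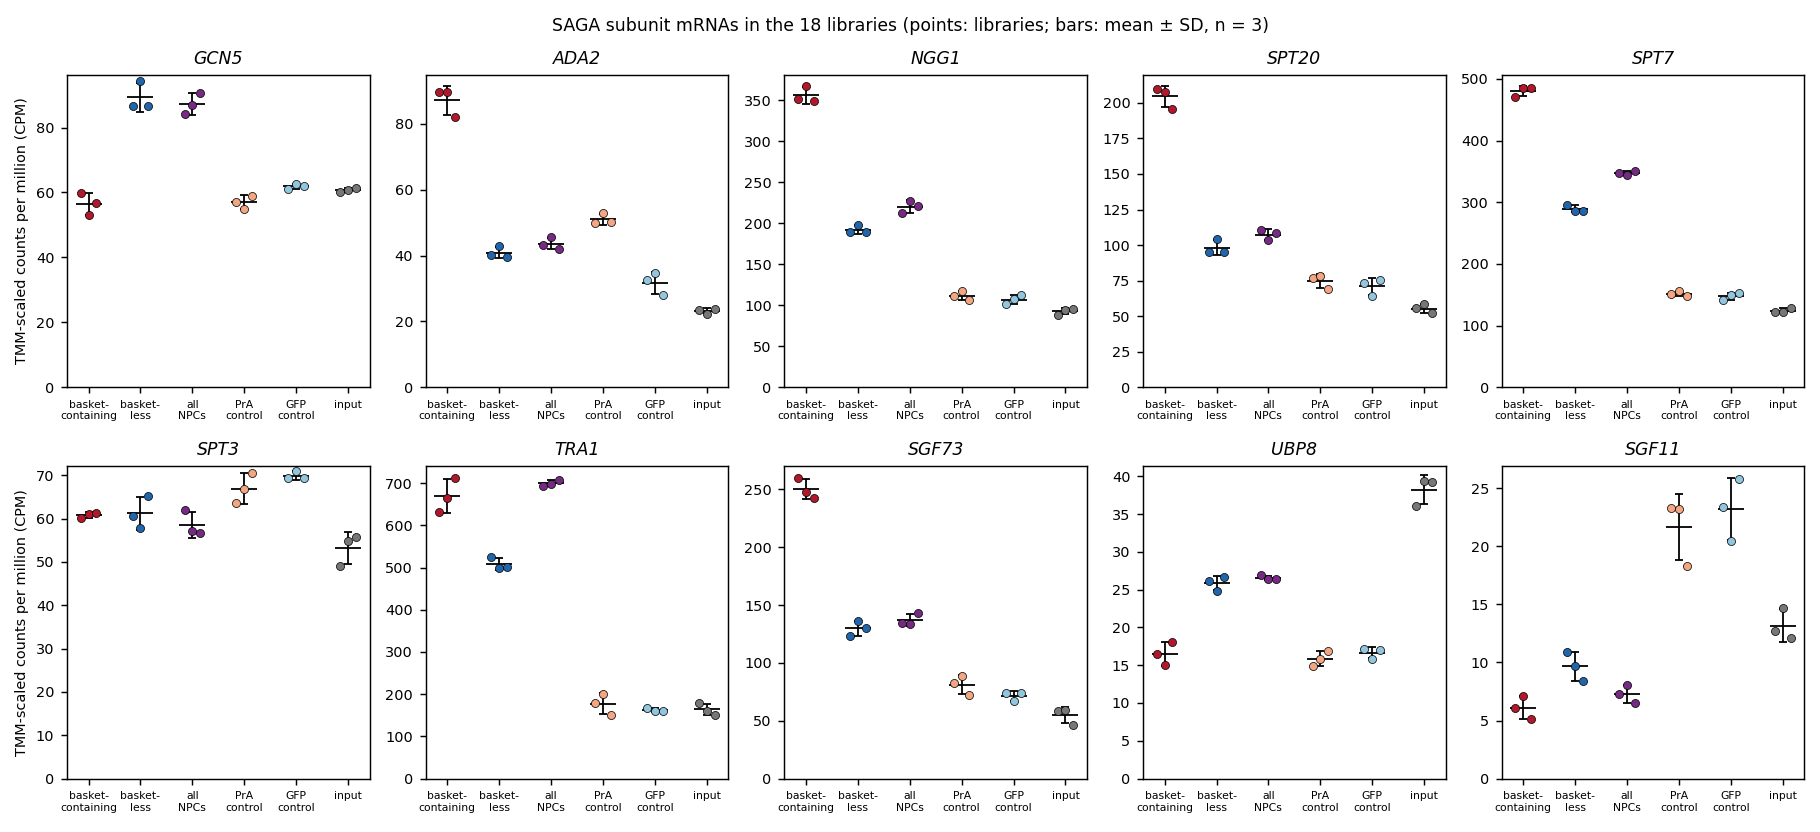
Level of each SAGA subunit mRNA in the 18 libraries, in CPM on a linear axis from 0; points are libraries and bars the mean ± SD of 3. NGG1, SPT20, SPT7, SGF73 and ADA2 are highest in basket-containing pores, GCN5 in basket-less pores and all NPCs, UBP8 in input and SGF11 in the controls.

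The acetyltransferase module did not move as a unit. NGG1 (YDR176W, also called ADA3), which with Ada2 enables Gcn5 to act on nucleosomes, had 351, 368 and 349 CPM in basket-containing pores, 189, 198 and 190 CPM in basket-less pores and 213, 228 and 221 CPM in all NPCs. It had 111, 117 and 106 CPM in the PrA control, 101, 107 and 112 CPM in the GFP control and 88.3, 94.7 and 95.1 CPM in input. Every pore library thus lay above every control library. NGG1 rose by 1.67 ± 0.05 over the PrA control in basket-containing pores (edgeR, Benjamini-Hochberg adjusted p = 2.08e-21), by 0.85 ± 0.05 over the GFP control in basket-less pores and by 1.05 ± 0.05 in all NPCs.

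GCN5 (YGR252W) encodes the catalytic histone acetyltransferase. Its mRNA had 59.8, 53.0 and 56.7 CPM in basket-containing pores, against 57.1, 54.9 and 59.0 CPM in the PrA control, which overlap (-0.01 ± 0.06; edgeR, Benjamini-Hochberg adjusted p = 0.898). It had 86.7, 94.3 and 86.8 CPM in basket-less pores and 84.1, 87.0 and 90.7 CPM in all NPCs, against 61.1, 62.7 and 61.9 CPM in the GFP control. GCN5 therefore rose in both nanobody purifications, by 0.53 ± 0.05 in basket-less pores (edgeR, Benjamini-Hochberg adjusted p = 1.84e-09) and by 0.50 ± 0.05 in all NPCs. With upper-quartile factors it was called lower in basket-containing pores (-0.35, edgeR, Benjamini-Hochberg adjusted p = 1.56e-06). Relative to TMM factors, that scaling lowers the median of all genes in that comparison by 0.34. The result for GCN5 there rests on the scaling chosen, and which scaling is nearer the true change was not tested.

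ADA2 (YDR448W), the adaptor that holds Gcn5, has nearly the coding length of GCN5 and a different pattern. It had 89.8, 89.6 and 82.1 CPM in basket-containing pores, against 49.9, 52.8 and 50.3 CPM in the PrA control, a rise of 0.77 ± 0.07 (edgeR, Benjamini-Hochberg adjusted p = 2.85e-11). Basket-less pores had 40.2, 42.8 and 39.7 CPM and all NPCs 43.3, 45.5 and 42.1 CPM, against 32.7, 34.6 and 28.1 CPM in the GFP control, and 23.6, 22.3 and 23.6 CPM in input. ADA2 rose by 0.36 ± 0.07 in basket-less pores and 0.46 ± 0.07 with all NPCs, all libraries above those of the GFP control. The rise in basket-less pores was not called with upper-quartile factors (0.10; edgeR, Benjamini-Hochberg adjusted p = 0.233).

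Of the core subunits, SPT7 and SPT20 rose in every pore purification and SPT3 did not. SPT7 (YBR081C), a scaffold on which the complex is built, had 471, 485 and 485 CPM in basket-containing pores, 296, 286 and 285 CPM in basket-less pores and 347, 344 and 351 CPM in all NPCs. Its levels were 150, 156 and 149 CPM in the PrA control, 141, 149 and 153 CPM in the GFP control and 122, 122 and 128 CPM in input. The groups of pores did not overlap one another or any control. SPT7 rose by 1.66 ± 0.04 over the PrA control in basket-containing pores (edgeR, Benjamini-Hochberg adjusted p = 3.35e-23), by 0.97 ± 0.04 over the GFP control in basket-less pores and by 1.23 ± 0.04 in all NPCs.

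SPT20 (YOL148C, also called ADA5), needed for the integrity of the complex, had 210, 208 and 196 CPM in basket-containing pores, 95.1, 104 and 95.1 CPM in basket-less pores and 110, 103 and 108 CPM in all NPCs. It had 76.8, 78.1 and 69.4 CPM in the PrA control, 73.1, 64.3 and 75.5 CPM in the GFP control and 55.6, 58.4 and 52.1 CPM in input. Basket-less pores and all NPCs overlapped each other but not the controls. The rises were 1.45 ± 0.06 in basket-containing pores (edgeR, Benjamini-Hochberg adjusted p = 7.34e-18), 0.47 ± 0.06 in basket-less pores, and 0.60 ± 0.06 with all NPCs.

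SPT3 (YDR392W) encodes the subunit that contacts the TATA-binding protein, and its mRNA varied least of the 10 across the groups, over 0.39 on the log2 scale between the means of the highest and lowest group. It had 60.1, 61.0 and 61.3 CPM in basket-containing pores, 60.7, 57.7 and 65.2 CPM in basket-less pores and 62.0, 57.0 and 56.6 CPM in all NPCs. It had 63.5, 66.7 and 70.5 CPM in the PrA control, 69.3, 71.1 and 69.4 CPM in the GFP control and 49.1, 54.9 and 55.8 CPM in input. Pore libraries lay below their own control, narrowly. The fall was 0.14 ± 0.06 in basket-containing pores (log2 fold change -0.14; edgeR, Benjamini-Hochberg adjusted p = 0.0401), -0.19 ± 0.06 in basket-less pores (adjusted p = 0.00553 by the same edgeR test) and -0.26 ± 0.06 in all NPCs (adjusted p = 4.08e-04 by the same edgeR test). The call in basket-containing pores was lost with DESeq2 size factors, with the DESeq2 Wald test, with no filter, when only the compared groups were fitted, and without any 1 of 5 of the 6 libraries, replicate 3 of the PrA control among them (-0.10; edgeR, Benjamini-Hochberg adjusted p = 0.136).

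TRA1, whose product is the large activator-binding subunit that SAGA shares with the acetyltransferase complex NuA4, rose most of the 10 over background in every pore purification. It had 633, 666 and 713 CPM in basket-containing pores, 525, 500 and 502 CPM in basket-less pores and 694, 698 and 708 CPM in all NPCs. The controls and input had much less, with 177.9, 201 and 151 CPM in the PrA control, 167.1, 161 and 159 CPM in the GFP control and 179.03, 161 and 152 CPM in input, and overlapped one another. TRA1 rose by 1.92 ± 0.07 in basket-containing pores (edgeR, Benjamini-Hochberg adjusted p = 3.38e-15), by 1.65 ± 0.08 in basket-less pores and by 2.11 ± 0.08 in all NPCs. Among all genes tested, ranked by log2 fold change from low to high, it stood at the 89.3rd, 95.6th and 97.0th percentile of these comparisons.

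The deubiquitinating module held members that moved in opposite directions. SGF73 (YGL066W), the yeast counterpart of ataxin-7, which anchors this module to SAGA, had 260, 248 and 243 CPM in basket-containing pores, 123, 136 and 130 CPM in basket-less pores and 135, 133 and 143 CPM in all NPCs. It had 82.5, 88.6 and 72.2 CPM in the PrA control, 73.6, 66.7 and 73.7 CPM in the GFP control and 58.0, 59.5 and 46.7 CPM in input. Every pore library was above every control library. SGF73 rose by 1.62 ± 0.07 in basket-containing pores (edgeR, Benjamini-Hochberg adjusted p = 8.30e-16), by 0.86 ± 0.07 in basket-less pores and by 0.94 ± 0.07 in all NPCs.

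UBP8 (YMR223W) encodes the ubiquitin protease itself. It had 16.4, 15 and 18.1 CPM in basket-containing pores, against 14.9, 15.9 and 16.8 CPM in the PrA control, with no call (0.07 ± 0.09; edgeR, Benjamini-Hochberg adjusted p = 0.485). With upper-quartile factors this value turned negative and was called (-0.28; edgeR, Benjamini-Hochberg adjusted p = 0.0053). Basket-less pores had 26.1, 24.8 and 26.7 CPM and all NPCs 26.9, 26.4 and 26.5 CPM, against 17.1, 15.8 and 17.02 CPM in the GFP control, rises of 0.64 ± 0.08 (edgeR, Benjamini-Hochberg adjusted p = 1.50e-07) and 0.68 ± 0.08. In input UBP8 had 36.0, 39.4 and 39.2 CPM, above every purification, so the rises over the GFP control ended below the level of the extract.

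SGF11 encodes the small zinc-finger protein that activates Ubp8. It had 6.04, 7.14 and 5.13 CPM in basket-containing pores, 10.9, 9.67 and 8.42 CPM in basket-less pores and 7.33, 8.07 and 6.52 CPM in all NPCs. It had 23.3, 23.3 and 18.4 CPM in the PrA control, 23.4, 20.5 and 25.8 CPM in the GFP control and 12.7, 14.7 and 12.1 CPM in input. All pore libraries were below input, and all control libraries above it. SGF11 fell by 1.84 ± 0.14 in basket-containing pores (log2 fold change -1.84; edgeR, Benjamini-Hochberg adjusted p = 4.96e-12), by 1.27 ± 0.13 in basket-less pores and by 1.67 ± 0.13 in all NPCs.

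**Figure D2:**
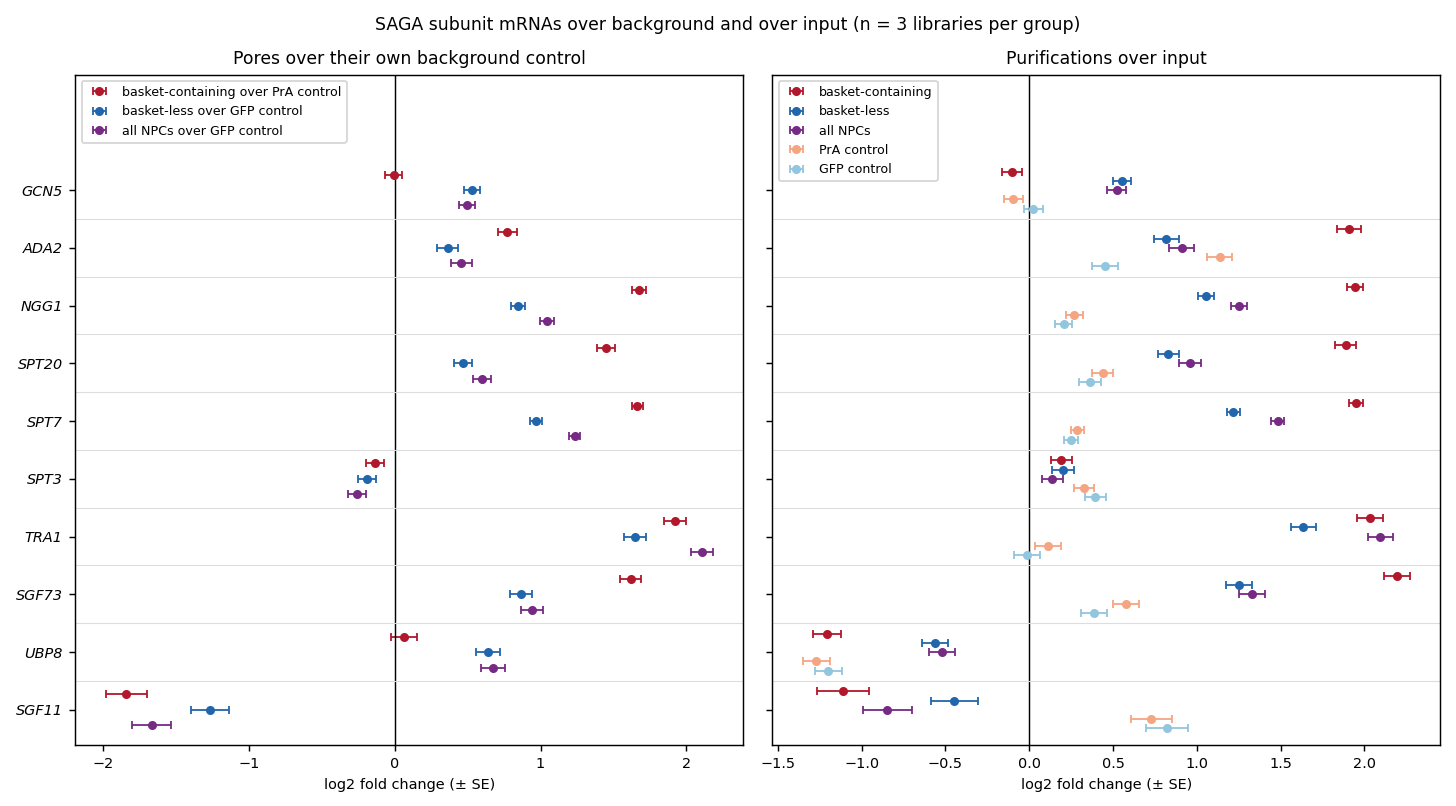
Log2 fold change ± SE of each SAGA subunit mRNA (rows) over the background control of the same matrix (left) and over input (right), n = 3 libraries per group. Left of 0 in every pore purification over its control are SPT3 and SGF11; left of 0 in every purification over input is UBP8.

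How do the purifications, controls included, compare with the total extract? Over input, 7 of the 10 were called higher and 2 lower in basket-containing pores (43.9% and 45.5% of all genes), 8 and 2 in basket-less pores (44.0% and 36.1%), and 8 and 2 in all NPCs (44.6% and 37.1%). Medians of the 10 were 1.90, 0.82 and 0.93, beside -0.05, 0.08 and 0.08 for all genes tested. The lower ones were UBP8 and SGF11 in each case. SGF73 rose most over input in basket-containing pores, by 2.20 ± 0.08 (edgeR, Benjamini-Hochberg adjusted p = 6.82e-18), and TRA1 rose most in basket-less pores (1.64 ± 0.08) and all NPCs (2.10 ± 0.08). SPT3 rose by 0.19 ± 0.06, 0.20 ± 0.06 and 0.14 ± 0.06 in the basket-containing pores, basket-less pores and all NPCs, but with upper-quartile factors these became -0.140, -0.0503 and -0.134. In basket-containing pores SPT3 was then called lower (edgeR, Benjamini-Hochberg adjusted p = 0.0445). Without replicate 1 of the input none of the called rises of SPT3 held (0.14, 0.15 and 0.08). Those of the basket-less pores and all NPCs were also lost with DESeq2 size factors (0.09 and 0.03). The DESeq2 Wald test, no filter and a fit of the compared groups alone lost them too.

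Background purifications also differed from input in the SAGA mRNAs. In the PrA control 7 of 10 were higher than in input and 1 lower (37.5% and 41.2% of all genes), and in the GFP control again 7 and 1 (37.2% and 42.4%). UBP8 was the lower one, by 1.27 ± 0.08 in the PrA control (log2 fold change -1.27; edgeR, Benjamini-Hochberg adjusted p = 2.62e-13) and by 1.20 ± 0.08 in the GFP control (log2 fold change -1.20). ADA2 had the largest rise of the 10 in the PrA control, 1.14 ± 0.07, and SGF11 in the GFP control, 0.82 ± 0.12. GCN5 and TRA1 were called in neither, except that TRA1 was called in the PrA control without replicate 3 of that control (0.21; edgeR, Benjamini-Hochberg adjusted p = 0.00168) and without replicate 1 of the input (0.18; edgeR, Benjamini-Hochberg adjusted p = 0.0428).

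Fewer members separated the backgrounds from each other. ADA2 was called higher in the PrA control than in the GFP control, by 0.68 ± 0.07 (edgeR, Benjamini-Hochberg adjusted p = 6.49e-08), and none was called lower, where 16.1% of all genes were higher and 16.7% lower. The other 9 members lay between -0.12 and 0.19 and were not called. Without replicate 3 of the PrA control the count of members called higher was 3, with SGF73 (0.26) and TRA1 (0.22) added. Calls rose over all genes too without that library, to 1431 higher and 1480 lower of 6449 tested, against 1038 and 1075 of 6429 with it.

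How do basket-containing pores differ from basket-less pores in SAGA mRNAs? Directly compared, 6 of the 10 were higher and 3 lower (40.3% and 42.2% of all genes), with a median of 0.56 beside -0.04 for all genes tested. The balance over all genes depends on the scaling: with DESeq2 size factors 2908 genes were higher and 2418 lower (54.6% of calls higher, against 48.9%), with medians of 0.70 for the 10 and 0.09 for all genes, and without replicate 3 of the basket-containing pores 2840 were higher and 2342 lower. ADA2 (1.09 ± 0.07; edgeR, Benjamini-Hochberg adjusted p = 9.30e-14), SPT20 (1.06 ± 0.06), SGF73 (0.95 ± 0.07), NGG1 (0.89 ± 0.05) and SPT7 (0.73 ± 0.04) were higher, and TRA1 less so (0.40 ± 0.07). GCN5 (-0.66 ± 0.06; edgeR, Benjamini-Hochberg adjusted p = 4.62e-11), UBP8 (-0.64 ± 0.09) and SGF11 (-0.67 ± 0.16) were lower. Among the 10, the mRNAs of both enzymes, GCN5 and UBP8, were lower, and those of NGG1, ADA2 and SGF73 higher. SGF11 was on the side of the enzymes. Outside the 10, SGF29 of the acetyltransferase module was higher (0.77 ± 0.06) and SUS1 of the deubiquitinating module lower (-0.46 ± 0.10). UBP8 thus did not part from all its partners, as SGF11 and SUS1 were lower with it. In each of the 9 members called, the libraries of basket-containing and basket-less pores did not overlap. SPT3 was not called (-0.01 ± 0.06; edgeR, Benjamini-Hochberg adjusted p = 0.895).

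Each pore group was also taken over its own matrix's control, and these log2 fold changes were then compared. Here 6 of the 10 were again higher in basket-containing pores and 3 lower (36.6% and 39.5% of all genes), with a median of 0.34 beside -0.03. SPT20 had the largest difference (0.98 ± 0.09; edgeR, Benjamini-Hochberg adjusted p = 1.49e-10), followed by NGG1 (0.82 ± 0.07), SGF73 (0.76 ± 0.10) and SPT7 (0.69 ± 0.05). ADA2, at 1.09 in the direct comparison, was at 0.41 ± 0.10 (edgeR, Benjamini-Hochberg adjusted p = 5.38e-04). TRA1 was at 0.27 ± 0.10 (edgeR, Benjamini-Hochberg adjusted p = 0.0241), which became 0.17 without replicate 3 of the PrA control, and its call was lost with upper-quartile factors (adjusted p = 0.0945 by the same edgeR test) and without replicate 1 of the GFP control (adjusted p = 0.0567 by the same edgeR test). GCN5 (-0.54 ± 0.08) and UBP8 (-0.57 ± 0.12) were lower. SPT3 was not called (0.06), but was with DESeq2 size factors (0.20; edgeR, Benjamini-Hochberg adjusted p = 0.0472). SGF11 was at -0.57 ± 0.20 (edgeR, Benjamini-Hochberg adjusted p = 0.0114), and its call was lost with DESeq2 size factors (-0.43; edgeR, Benjamini-Hochberg adjusted p = 0.0511), with the DESeq2 Wald test (-0.43; Benjamini-Hochberg adjusted p = 0.0565) and without replicate 3 of the basket-containing pores (-0.35; edgeR, Benjamini-Hochberg adjusted p = 0.144). In the direct comparison SGF11 was at -0.43 without that library.

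**Figure D3:**
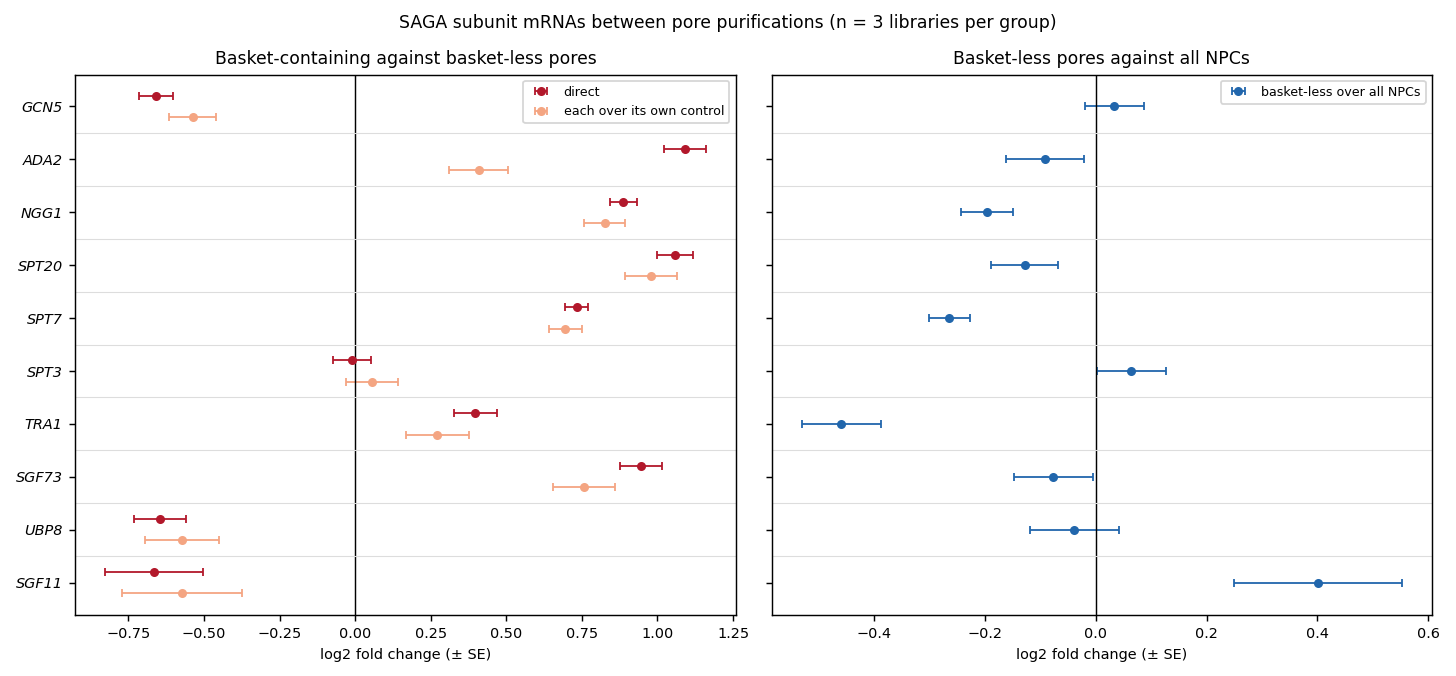
Log2 fold change ± SE of each SAGA subunit mRNA (rows) for basket-containing against basket-less pores, directly and with each background control taken off (left), and for basket-less pores against all NPCs (right), n = 3 libraries per group. GCN5, UBP8 and SGF11 lie left of 0 and 6 members right of it on the left side; the scale on the right side is narrower, with TRA1 lowest at -0.46.

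Basket-less pores and all NPCs, which share the nanobody, differed little. In basket-less pores 3 members were lower and 1 higher (22.8% and 20.3% of all genes), with a median of -0.08 beside 0.00 for all genes tested. TRA1 was lower by 0.46 ± 0.07 (log2 fold change -0.46; edgeR, Benjamini-Hochberg adjusted p = 4.16e-05), SPT7 by 0.26 ± 0.04 (log2 fold change -0.26) and NGG1 by 0.20 ± 0.05 (log2 fold change -0.20). SGF11 was higher by 0.40 ± 0.15 (edgeR, Benjamini-Hochberg adjusted p = 0.0352), a call lost without any 1 of 4 of the 6 libraries: replicate 1 or 2 of the basket-less pores, or replicate 1 or 3 of all NPCs. The remaining 6, GCN5 and UBP8 among them, lay between -0.13 and 0.06 and were not called. SPT20 was called without replicate 2 of the basket-less pores (-0.18; edgeR, Benjamini-Hochberg adjusted p = 0.0447) and when only these groups were fitted (-0.12; edgeR, Benjamini-Hochberg adjusted p = 0.00853).

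The order of the members over background followed their coding length, as it did less closely for genes at large. Across the 10 mRNAs, which are not replicates, Spearman's rho of log2 fold change with coding length was 0.952 for basket-containing pores over the PrA control, and over the GFP control 0.952 for basket-less pores and 0.988 for all NPCs. Across the 5773 tested genes with a coding length it was 0.567, 0.534 and 0.583. Basket-less pores against all NPCs had the opposite sign, -0.903 for the members and -0.563 for all genes. For basket-containing against basket-less pores the members' rho was 0.358, beside 0.452 for all genes. These are descriptions across genes, all drawn from the same libraries.

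Set beside the median of their length class, the members parted, but the classes are wide. Class medians rose with length, from -0.96 to 1.35 in basket-containing pores over the PrA control. Genes of 1 to 2 kilobases (2180 tested) had a median of 0.18 in basket-containing pores over the PrA control, where SGF73 was at 1.62, SPT20 at 1.45 and ADA2 at 0.77, against 0.07 for UBP8, -0.01 for GCN5 and -0.14 for SPT3. SGF73 (1974 coding bases) and SPT20 (1815) lie near the upper edge of that class and SPT3 (1014) at its lower edge. Their distance from 0.18 is therefore not a comparison at equal length. For SPT7 and TRA1, at 1.66 and 1.92, the median of the 491 genes of 3 kilobases or more was 1.35. NGG1, at 1.67, lay above the median of 1.03 for the 800 genes of 2 to 3 kilobases, and SGF11, at -1.84, below the median of -0.96 for the 2302 genes under 1 kilobase. In all, 6 of the 10 lay above the median of their length class in basket-containing pores, and 8 of 10 over the GFP control for basket-less pores as for all NPCs. In the direct comparison of basket-containing with basket-less pores this was 5 of 10. There the median of genes of 3 kilobases or more was 0.69, with SPT7 near it at 0.73. TRA1, though called higher, was below that median at 0.40. The part of coding length in these differences was not tested.

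**Figure D4:**
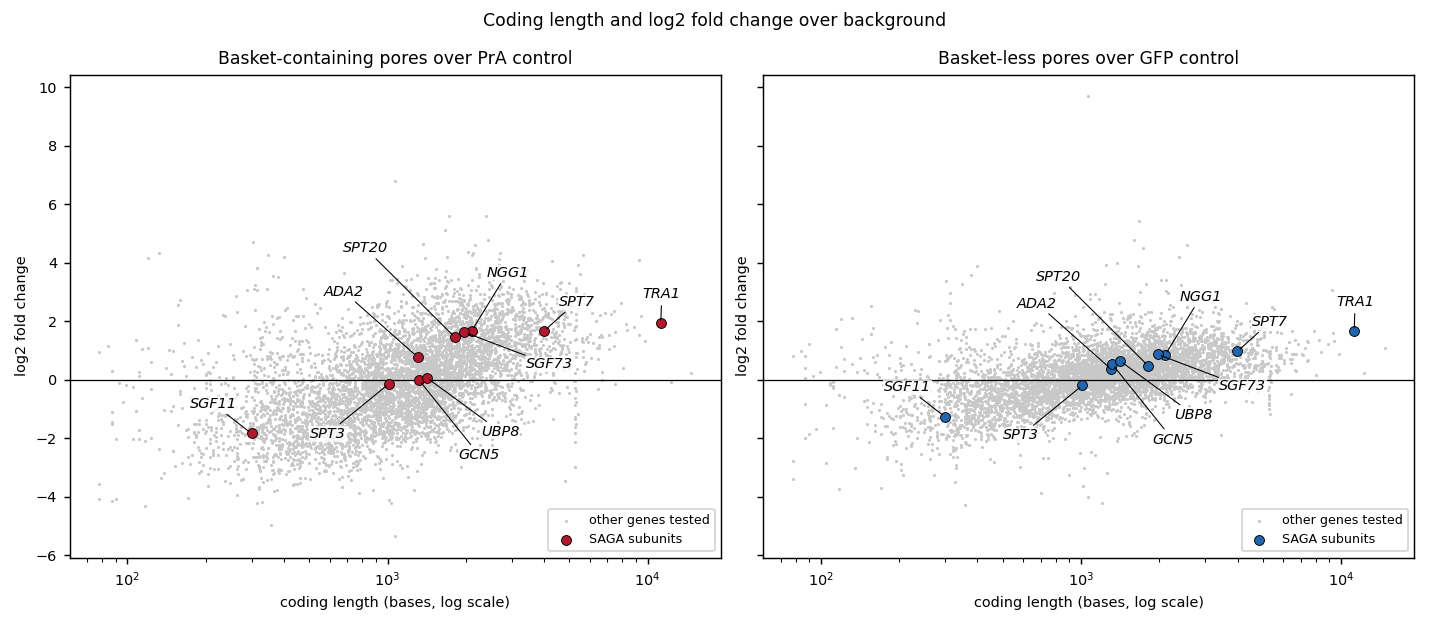
Log2 fold change against coding length (log axis) for the 10 SAGA subunit mRNAs (large points) and the other tested genes (grey), in basket-containing pores over the PrA control (left) and basket-less pores over the GFP control (right). SGF11, with 300 coding bases, is lowest of the 10 and TRA1, with 11235, highest on both sides; ADA2 and GCN5, of similar length, are apart on the left and close on the right.

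Per kilobase of coding length, the levels of the 10 mRNAs lay closer together in input than in any purification. In basket-containing pores NGG1 was highest, at 168.9 ± 4.8 CPM per kilobase (SD, n = 3), followed by SGF73 (127 ± 4), SPT7 (120 ± 2) and SPT20 (113 ± 4), with SPT3, TRA1 and ADA2 between 59.7 and 66.8 and UBP8 lowest at 11.7 ± 1.1. In input SPT3 was highest, at 52.5 ± 3.6 CPM per kilobase, then GCN5 (46.1 ± 0.5), NGG1 (44.0 ± 1.8) and SGF11 (43.9 ± 4.6), while ADA2 was at 17.8 ± 0.6 and TRA1 lowest at 14.6 ± 1.2. The mean levels of NGG1 and SGF11 in input, and those of SPT7 (31.1 ± 0.9) and SPT20 (30.5 ± 1.7), lay within their spread of one another. The SD of SGF11 also spanned the mean of GCN5. The highest level was 14.5 times the lowest in basket-containing pores, 4.99 times in basket-less pores, 5.57 times in all NPCs, 6.44 times in the PrA control, 6.59 times in the GFP control and 3.60 times in input. In both controls SGF11 headed the order per kilobase, with 72.1 ± 9.5 in the PrA control and 77.4 ± 8.9 in the GFP control. Levels per coding length leave untranslated regions out, which weighs most on short mRNAs such as SGF11.

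Of 9 further SAGA subunit mRNAs, all tested, 4 rose and 4 fell in basket-containing pores over the PrA control (median 0.02), close to the 43.8% and 46.5% of all genes (median -0.07). Over the GFP control 5 rose and 1 fell with basket-less pores (median 0.16, against 47.1% and 35.5% of all genes and a median of 0.11), and 6 rose and 2 fell with all NPCs (median 0.28, against 46.9% and 37.6% and a median of 0.11). SGF29 (YCL010C), which reads methylated histone tails for the acetyltransferase module, rose by 1.14 ± 0.06 in basket-containing pores, and TAF5 (YBR198C), a core subunit shared with TFIID, by 1.11 ± 0.04 (edgeR, Benjamini-Hochberg adjusted p = 2.06e-18). HFI1 (YPL254W, also called ADA1), a core subunit that pairs with Taf12, fell there by 1.14 ± 0.08 (log2 fold change -1.14), while TAF12 (YDR145W) rose by 0.80 ± 0.05. TAF10 (YDR167W), which pairs with Spt7 in SAGA, fell by 1.45 ± 0.07 (log2 fold change -1.45) and TAF9 (YMR236W) by 1.11 ± 0.05 (log2 fold change -1.11).

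Set against basket-less pores, basket-containing pores had 3 of these 9 higher and 5 lower (median -0.46), where 40.3% of all genes were higher and 42.2% lower (median -0.04). Once each control was subtracted, 2 were higher and 4 lower (median -0.25), where 36.6% and 39.5% of all genes were (median -0.03). TAF10 averaged 25.3 ± 1.7 CPM in basket-containing pores and 71.9 ± 2.2 CPM in basket-less pores, against 72.5 ± 2.3 CPM in input (SD, n = 3 each). HFI1 averaged 22.6 ± 1.2 CPM in basket-containing pores and 50.2 ± 2.2 CPM in basket-less pores, against 52.3 ± 1.3 CPM in input. Neither was called between basket-less pores and input (-0.01 and -0.06), and both were lower in basket-containing pores than in basket-less ones, with differences of -1.51 ± 0.07 for TAF10 (edgeR, Benjamini-Hochberg adjusted p = 9.28e-17) and -1.15 ± 0.08 for HFI1. SUS1 (YBR111W-A), the subunit shared with TREX-2, averaged 13.0 ± 1.2 CPM in basket-containing pores, 18 ± 1.0 CPM in basket-less pores and 16.8 ± 0.9 CPM in all NPCs, against 28.0 ± 1.9 CPM in input. Like UBP8 it was lower than input in every purification, by 0.70 ± 0.09 in the PrA control (log2 fold change -0.70) and 0.48 ± 0.09 in the GFP control (log2 fold change -0.48). TAF6 (YGL112C) was lower in the basket-containing pores (-0.69 ± 0.06 against the basket-less ones), and SPT8 (YLR055C), a TATA-binding protein contact like Spt3, was not called (0.12 ± 0.07; edgeR, Benjamini-Hochberg adjusted p = 0.116).

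Related complexes were counted in the same way, beside the same 40.3% of all genes higher and 42.2% lower. Of the 9 subunits found in TFIID but not SAGA, 2 were higher and 5 lower in basket-containing pores when set against basket-less ones (median -0.14), with TAF1 at 0.91 ± 0.04, TAF14 at -1.10 ± 0.06, TAF13 at -1.64 ± 0.12 and TAF2 at 0.34 ± 0.05. TAF2 overlaps an annotated gene, so its value is uncertain. Of 11 NuA4 subunits other than Tra1, 5 were higher and 5 lower (median 0.07), with SWC4 at 1.20 ± 0.05, EPL1 at 1.02 ± 0.06, EAF7 at -0.85 ± 0.05 and ARP4 at -0.61 ± 0.05. Of 4 TREX-2 subunits other than Sus1, SAC3 (0.57 ± 0.05) and THP1 (0.36 ± 0.08) were higher and SEM1 (-0.62 ± 0.06) and CDC31 (-1.31 ± 0.09) lower. The NuA4 and TREX-2 counts lie near the shares of all genes. Whether the SAGA counts differ from those of the other complexes was not tested.

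The 5 genes whose means over the 6 groups were most like the average profile of the 10, among 5066 genes at 20 CPM or more, were YGR109W-B, GIS4, MRX6, YCR023C and FCY22, with Pearson's r between 0.998 and 0.999 over 6 groups. YGR109W-B is a retrotransposon reading frame with near-identical copies, so its counts are uncertain. The averaged profile hides the members' differences: between pairs of members r ran from -0.917 (TRA1 with SGF11) to 0.993.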

How the data were processed

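Libraries of poly(A) RNA were assigned to their groups, 6 groups of 3, from the sample titles. The deposited files hold raw counts per feature, 1 column per library. The submitters' processing notes name STAR, featureCounts, DESeq2 and the genome build R64. The sources used here do not state versions, strandedness or how multi-mapped reads were treated, so reads of an antisense or neighbouring transcript cannot be told apart from a member's own. Of 7127 features, 6047 matched the RefSeq R64 annotation by locus name; unmatched reading frames were not checked for overlap with the members. Coding lengths sum the coding exons.

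The counts were tested with edgeR 4.0.16 in R 4.3.3, using filterByExpr (6429 genes left), TMM factors, a single robust glmQLFit over the 18 libraries and two-sided glmQLFTest contrasts. Benjamini-Hochberg adjustment ran over all genes tested, with a threshold of 0.05. The standard error was taken as the size of the log2 fold change divided by the root of its F statistic. Profiles used log2 CPM with a prior count of 2. The alternatives were DESeq2 size factors, upper-quartile factors, no filter, a block for replicate number, each library left out in turn, a fit of the compared groups alone, and the Wald test of DESeq2 1.42.0. The pipeline was tested on simulated data. Only a small part of the genes was changed there, in a single group, so that test cannot judge the scaling where most genes differ. The members and lists were chosen with earlier results of these data known. Named are all 10 members, the 9 other SAGA subunits, up to 4 genes of each other list by smallest adjusted p for basket-containing over basket-less pores, and the 5 genes most like the members' average profile.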

Additional observations from a re-analysis of the deposited data

Results flagged for a closer look

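The effect over the own background control differed between basket-containing and basket-less pores for 9 of the 10 SAGA mRNAs, and this is what brought them here. It was tested as a contrast of both pore groups and their controls in the edgeR quasi-likelihood fit (36.6% of all genes tested were higher and 39.5% lower in that contrast). The differences, basket-containing minus basket-less on the log2 scale, were 0.98 for SPT20, 0.82 for NGG1, 0.76 for SGF73, 0.69 for SPT7, 0.41 for ADA2 and 0.27 for TRA1, and -0.54 for GCN5, -0.57 for UBP8 and -0.57 for SGF11. SGF11 loses its call with DESeq2 size factors, with the DESeq2 Wald test and without replicate 3 of the basket-containing pores, and TRA1 with upper-quartile factors and without replicate 1 of the GFP control. GCN5 and UBP8 rose over the GFP control in basket-less pores and were not called over the PrA control in basket-containing pores. The matrix differs along with the basket in this comparison, and the part of the matrix was not tested.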

How the results depend on the processing

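Of 300 counts of members called, 284 stayed within 1.5 times their value and 16 did not. Members called lower in basket-containing pores over the PrA control numbered 1 in place of 2 with DESeq2 size factors, the DESeq2 Wald test, no filter or only the groups compared, 4 with upper-quartile factors, and 1 to 2 without single libraries. Over input, basket-containing pores had 4 lower in place of 2 with upper-quartile factors. Without single libraries, members called higher ranged from 0 to 1 for basket-less pores over all NPCs and from 1 to 3 for the PrA over the GFP control. Of 1500 values of single members, 1435 kept direction and side of the threshold, 31 lost and 10 gained a call, and 24 changed sign. GCN5 in basket-containing pores over the PrA control became 0.0124 with DESeq2 size factors, 0.0139 with the DESeq2 Wald test, 0.0036 with no filter and 0.0037 with only the groups compared, and UBP8 there -0.277 with upper-quartile factors. SPT3 in basket-containing over basket-less pores became 0.121 with DESeq2 size factors and the Wald test and 0.115 with no filter. With upper-quartile factors SPT3 was at -0.0163 once each control was subtracted, and at -0.140, -0.0503 and -0.134 over input in basket-containing pores, basket-less pores and all NPCs. The value of -0.140 was called lower, where the main fit called SPT3 higher. TRA1 in the GFP control over input became 0.0110 with no filter, 0.0351 with only the groups compared and 0.0043 with upper-quartile factors. Without single libraries the sign also turned for GCN5 in basket-containing pores over the PrA control (-0.0534 to 0.0328), SPT3 in basket-containing over basket-less pores (-0.0515 to 0.114), GCN5 in basket-less pores over all NPCs (-0.0092 to 0.0630), TRA1 in the GFP control over input (-0.0673 to 0.0571) and SGF11 in the PrA over the GFP control (-0.174 to 0.0067).

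Upper-quartile factors moved the median of all genes by -0.34 in basket-containing pores over the PrA control and by -0.27 and -0.29 in basket-less pores and all NPCs over the GFP control, where 41.3% and 42.1% of calls were then higher, against 57.0% and 55.5%. Over input 39.2% and 40.2% were, against 55.0% and 54.6%. With DESeq2 size factors the shift was at most 0.14, which for basket-containing over basket-less pores turned the median of all genes to 0.09. Replicate numbers showed no clear pairing of the libraries across the 6 groups. Deviations of same-numbered libraries correlated between -0.161 and 0.280, and those of different numbers between -0.299 and 0.230. Of 18 libraries, 7 correlated best with their own number. PrA control and input libraries of the same number correlated at 0.124, 0.098 and 0.280, and this check cannot decide on pairing between single groups. With the replicate number as a block no call of a member changed, SPT3 in basket-containing pores over the PrA control being at -0.136, and 6 members higher and 2 lower there. The causes of these changes were not tested. Low counts limit SGF11 most, with 56 to 424 raw counts in a library.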
